A study of Drosophila melanogaster with 3 samples.

Results

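The genes for the translation initiation factors (eIF) and elongation factors (eEF) of Drosophila melanogaster were examined for binding of the transcription factor Eagle. All protein-coding genes of the Ensembl annotation whose symbol begins with eIF or eEF were taken, which gave 52 of 13945 protein-coding genes on the 6 chromosome arms 2L, 2R, 3L, 3R, 4 and X. The binding data came from chromatin immunoprecipitation with sequencing (ChIP-seq) on whole prepupae of the strain eg-GFP, given in the labels as 2 days old. These flies carry a transgene for Eagle joined to eGFP (eg-eGFP), and the fusion protein was precipitated with an antibody against GFP. There were 3 biological replicates of this single group, the number of animals in each is not given, their sex was not collected, and no other genotype or stage was compared. Whole animals were used, so a peak cannot be assigned to a cell type, and the tagged protein came from the inserted transgene.

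For every replicate the deposited peaks came as a full ranked list and as a thresholded list, cut at an irreproducible discovery rate (IDR) of 0.01. The thresholded lists held 6215, 6024 and 7476 peaks in replicates 1, 2 and 3. The series list that the authors call conservative held 9370 peaks, of which replicate 1 overlapped 58.8%, replicate 2 overlapped 61.7% and replicate 3 overlapped 70.5%. It draws on the alignments of all 3 replicates, so overlap with a replicate list is not independent evidence. Peak signal is the authors' own measure of peak strength. A peak carried the same signal in the ranked and thresholded lists of its replicate, and again in the conservative and the other series lists. Whether the signals of different replicates were put on 1 scale is not given, so each mean ± SD of signals below describes the deposited values and includes any difference in scale. The files hold no read counts, so depth is unknown.

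Translation begins when eIF2 carries the initiator tRNA to the small ribosomal subunit, eIF3 holds that complex together, and the eIF4 factors bring it to the mRNA cap and unwind the leader. The complex scans to a start codon, GTP on eIF2 is hydrolysed, eIF5B joins the large subunit, and eIF2B recharges eIF2 with GTP for another round. Elongation then runs on eEF1, which delivers aminoacyl-tRNA, and eEF2, which moves the ribosome along. Cells tune this pathway with nutrients and stress, chiefly at eIF2 and at the cap. Eagle belongs to the knirps family of orphan nuclear receptors and is best known from the fly nervous system.

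A promoter peak is here a peak of the conservative list whose summit is at most 1000 bp from a transcription start site (TSS) of the gene. The sequences below show what lay under 5 of the peaks on which the results turn. They span 121 bases around the summit in release 6 of the genome (dm6), read from the RefSeq copy of that assembly, on the coding strand of the factor gene. The capital at base 61 is the summit, and a longer run of capitals is a motif named below. The first is under the strongest peak of the conservative list, 681 bp upstream of eIF2Bbeta (chrX:2703830-2703950, + strand), and held none of the motifs searched on both strands.

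eIF2Bbeta: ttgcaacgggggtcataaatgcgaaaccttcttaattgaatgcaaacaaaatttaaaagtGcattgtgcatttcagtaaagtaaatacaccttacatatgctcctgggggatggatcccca

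The next is the strongest elongation factor peak, at eEF1gamma (chr3R:29220081-29220201, + strand), where TATCGATA stands beside the summit and the TSS is base 92.

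eEF1gamma: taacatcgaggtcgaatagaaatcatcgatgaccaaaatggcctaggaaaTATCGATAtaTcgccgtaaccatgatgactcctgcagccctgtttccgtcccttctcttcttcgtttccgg

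The peak of eIF5B (chr3L:3460646-3460766, − strand) is one of the strong peaks found in all 3 replicates without any of these motifs.

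eIF5B: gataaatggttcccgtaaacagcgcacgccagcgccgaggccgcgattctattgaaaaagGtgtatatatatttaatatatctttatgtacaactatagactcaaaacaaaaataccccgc

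The peak of eIF3a (chr3R:4433884-4434004, − strand) is the weakest of the factor genes, holds TATCGATA, and has the TSS at base 110.

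eIF3a: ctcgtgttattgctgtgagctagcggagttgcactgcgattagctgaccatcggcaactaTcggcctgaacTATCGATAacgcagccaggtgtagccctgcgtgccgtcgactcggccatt

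The last (chr3R:24109146-24109266, − strand) is the summit in replicate 1 of a peak upstream of eIF4EHP that is strong in all ranked lists and in no thresholded list. Its capitals at base 21 are TATTTAT.

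eIF4EHP: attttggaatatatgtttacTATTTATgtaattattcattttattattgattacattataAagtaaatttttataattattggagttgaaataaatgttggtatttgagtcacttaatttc

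Of the 52 factor genes, 14 (26.9%) had a conservative promoter peak, against 27.2% of all protein-coding genes, and 8 (15.4%) had one that was found in all 3 replicates, against 14.8%. As a group the factor genes therefore carried promoter peaks about as often as any coding gene. In the thresholded list of replicate 1, 8 factor genes had a promoter peak (15.4%, against 20.9% of coding genes). Replicate 2 gave 12 (23.1%, against 21%) and replicate 3 gave 15 (28.8%, against 24.3%). The replicates averaged 11.7 ± 3.51 factor genes (SD, n = 3), and their shares fell on both sides of the background. In the ranked lists, before the threshold, the shares were 50%, 55.8% and 69.2%, against 67.5%, 62.1% and 65% of coding genes.

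The roles of the factors differed in how many genes had a conservative peak. Elongation factors had one at 5 of 8 genes and eIF2B at 2 of 5. The scanning and start codon factors had one at 3 of 9, the eIF3 subunits at 3 of 16, the cap and helicase factors of eIF4 at 0 of 13, and the single eIF6 gene had one. These groups are small, and the differences between them were not tested. The counted peaks of eIF2Bbeta, eIF2Bdelta, eEFSec and eIF3a lay nearer to the start of another coding gene, and these include every eIF2B peak. The thresholded list of each replicate kept the elongation factors above the eIF3 subunits, with 3, 5 and 4 of 8 against 1, 1 and 2 of 16 in replicates 1, 2 and 3. The scanning and start codon factors had 2, 4 and 5 of 9 in these lists, a larger share than the elongation factors in replicate 3 and a smaller one in replicates 1 and 2.

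**Figure D1:**
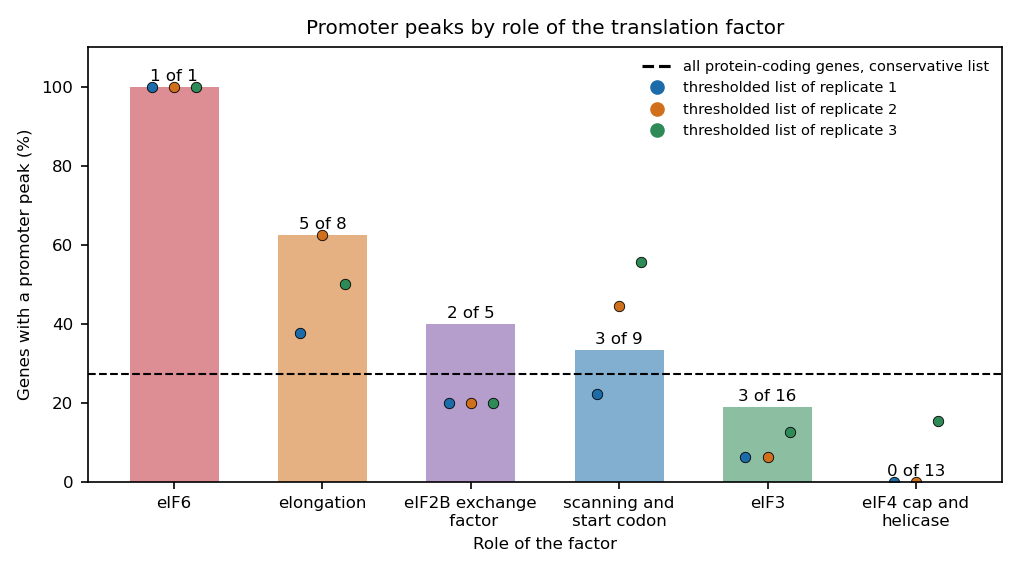
Bars give the percentage of genes of each role with a promoter peak in the conservative list, with the count above, and points give the same percentage in the thresholded list of each replicate; the dashed line is the 27.2% of all protein-coding genes. Elongation factors (5 of 8) stand above the line and the eIF3 (3 of 16) and eIF4 (0 of 13) genes below it.

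Among the scanning and start codon factors, eIF5B, the GTPase that joins the large ribosomal subunit, had the strongest peak. Its thresholded signals were 138, 118 and 113 in replicates 1, 2 and 3 (123 ± 13.0, SD, n = 3), and its conservative signal was 341 (rank 1372 of 9370). The summit lay 103 bp upstream of one of its 2 TSSs and within an intron of the longer transcript (chr3L:3460621-3460804). The genes armi and CG46463 also start within 1000 bp of it, but farther away. eIF2D, which can bring initiator tRNA to the ribosome without eIF2, had thresholded signals of 69.6, 73.6 and 91.2 (78.1 ± 11.5, SD, n = 3). Its conservative signal was 226, the summit lay 57 bp upstream of the TSS (chr3R:29151671-29152030), and no other gene started in the window.

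eIF1A, which keeps the small subunit open for scanning, had a weaker and less reproduced peak. It passed the threshold in replicate 2 with a signal of 78.9 and in replicate 3 with 84.2, and replicate 1 held it only in the ranked list, with 36.2. The conservative signal was 172, no replicate peak overlapped it by at least 50% of both widths, and the summit lay in an intron 908 bp downstream of the TSS (chr3R:18275541-18275630), the farthest from its start among the factor genes with a peak. The partner of eIF1A in scanning, eIF1, had no conservative peak and was in no series list. Yet replicate 2 placed a thresholded peak of signal 105 at 348 bp upstream of it, and replicate 3 one of 89.1 at 324 bp upstream. eIF2A, an alternative carrier of initiator tRNA, was found in replicate 3 alone, with a signal of 58.8 at 25 bp upstream. None of the 3 subunits of eIF2 (eIF2alpha, eIF2beta and eIF2gamma) had a promoter peak in the conservative list or in a replicate's thresholded list, and neither had eIF5, the factor that makes eIF2 hydrolyse its GTP. The nearest conservative summits lay 24197 bp from eIF2alpha, 2485 bp from eIF2beta, 11943 bp from eIF2gamma and 97524 bp from eIF5.

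The exchange factor eIF2B gave the strongest and one of the weakest peaks of the set. At eIF2Bbeta, a regulatory subunit, the thresholded signals were 1431, 1146 and 1454 (1344 ± 171, SD, n = 3). The conservative signal of 3996 ranked 1 of 9370 (chrX:2703714-2704058). The summit was 681 bp upstream of eIF2Bbeta but only 38 bp upstream of the neighbouring Ugalt, a sugar nucleotide transporter gene, so the peak is counted for both genes and lies nearer to Ugalt. eIF2Bdelta, another regulatory subunit, had a conservative signal of 100.997 at 779 bp upstream, and no thresholded list of a replicate overlapped this peak. The ranked lists held it at 38.9, 48.2 and 36.0, and CG30414 (274 bp) and roh (689 bp) started nearer to the summit. Of the other subunits, eIF2Bgamma lay 1289 bp from the nearest conservative summit, eIF2Bepsilon 13858 bp and eIF2Balpha 23631 bp.

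Of the 16 genes for eIF3 subunits, which scaffold the initiation complex, only eIF3h had a conservative promoter peak with replicate support. Its thresholded signals were 130, 131 and 171 (144 ± 23.7, SD, n = 3), with replicate 3 the highest, and the conservative signal was 415 (rank 980). The summit lay 314 bp downstream of the TSS in an intron (chr2L:5052352-5052559), and 377 bp upstream of the start of senju. eIF3m had a conservative signal of 117 at 113 bp upstream, as far as from the start of CG8323, passed no replicate's threshold, and was in none of the other series lists. The ranked lists of replicates 2 and 3 held it at 27.6 and 36.8. eIF3a, the largest scaffold subunit, had 72.7 at 49 bp upstream, nearer to CG1074 (21 bp), and ranked signals of 21.9, 42.3 and 38.7. So 1 of the 3 eIF3 peaks was found in the thresholded list of each replicate. Those of eIF3m and eIF3a were in no such list, though eIF3a was also in 2 of the 3 other series lists.

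The remaining eIF3 genes had none in the conservative list. Those with a summit under 5 kb away were eIF3d2 (1274 bp), eIF3d1 (1292 bp), eIF3g1 (1362 bp), eIF3i (2145 bp), eIF3b (2353 bp) and eIF3e (4374 bp). Farther off were eIF3k (5975 bp), eIF3l (6638 bp), eIF3j (9049 bp), eIF3f1 (10340 bp), eIF3c (16489 bp), eIF3f2 (20006 bp) and eIF3g2 (90194 bp). eIF3f1 had a thresholded peak in replicate 3, with a signal of 54.5 at 46 bp upstream, and ranked peaks of 20.4 and 23.4 in replicates 1 and 2. It was also in 2 of the 3 other thresholded series lists, with a signal of 89.8, and eIF3k was in 1 of them, with 62.5.

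No gene of the eIF4 group had a promoter peak in the conservative list, although eIF4G2 had one in 2 of the 3 other thresholded series lists (signal 98.9) and eIF4H1 in 1 of them (217). This group holds the helicase eIF4A and its cofactors eIF4B, eIF4H1 and eIF4H2, the cap-binding eIF4E proteins and the scaffolds eIF4G1 and eIF4G2. The thresholded list of replicate 3 held 2 of the 13, eIF4H1 (signal 83.8 at 196 bp upstream) and eIF4G2 (37.6 at 118 bp upstream), and those of replicates 1 and 2 held none. In the ranked lists eIF4H1 also had 73.3 in replicate 2, at 53 bp upstream, and eIF4G2 had 31.2 and 22.8 in replicates 1 and 2. The strongest ranked peaks of eIF4A lay at different places, with 35.0 at 603 bp upstream in replicate 1, 42.7 at 21 bp upstream in replicate 2 and 41.4 at 758 bp upstream in replicate 3.

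eIF4EHP, a cap-binding protein that represses translation, stood apart from the rest of its group. Its ranked lists held a peak upstream of the TSS in each replicate, with signals of 438, 351 and 353, ranked 113, 153 and 179 in those lists. All 3 summits lay 246, 218 and 225 bp upstream, within 28 bp of each other, and carried the score 1000, above the 830 at which the thresholded lists begin. None of the 3 thresholded lists held it. In replicates 1, 2 and 3 the same was true of 138 (2.17%), 148 (2.4%) and 191 (2.49%) of the ranked peaks at or above that score. Per the deposited descriptions, the thresholded lists derive from 1 further file that the ranked lists do not, and that file was not analysed here. CG18428 starts nearer to these summits, at 130, 158 and 151 bp. A peak of replicate 3 at eIF4A (signal 36.7 at 12 bp downstream, score 1000) was missing from the thresholded list in the same way.

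The other eIF4 genes lay far from conservative summits or just outside the window. eIF4G2 came closest, with a summit of signal 298 found in all 3 replicates at 1045 bp downstream, just beyond the window. The start of CG33111 lay equally far from this summit. eIF4EHP followed at 3814 bp, eIF4A at 6433 bp, eIF4E6 at 6978 bp, eIF4E1 at 8493 bp, eIF4E5 at 9074 bp, eIF4H2 at 11271 bp and eIF4E3 at 12058 bp. eIF4H1 lay 25869 bp away, eIF4E4 27680 bp, eIF4E7 32623 bp and eIF4B about 4974 kb, by far the most distant. The summit nearest to eIF4B had a signal of 3.29 and was in no replicate's thresholded list. Whether peaks could be called around eIF4B was not tested. eIF4G1, the main scaffold, is on chromosome 4, where the conservative list holds 0 peaks and none of the 80 coding genes could be called.

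**Figure D2:**
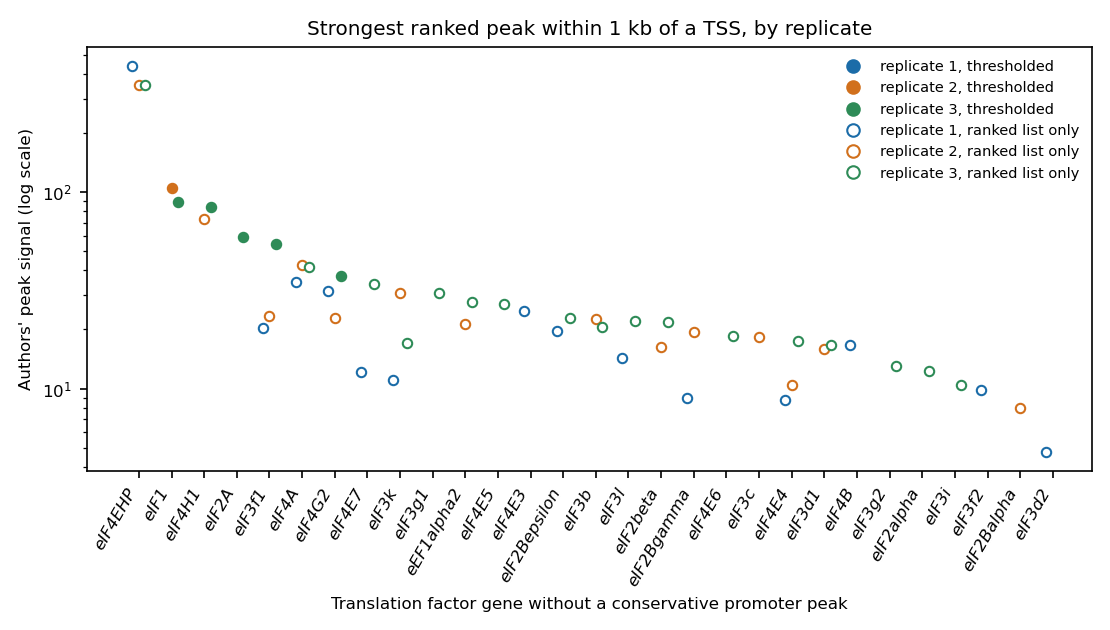
The authors' signal (log scale) of the strongest ranked peak within 1 kb of a TSS is plotted for the 29 factor genes without a conservative promoter peak that have one, filled where that peak is also in the thresholded list. The open points of eIF4EHP, at 438, 351 and 353, stand above all others, while eIF1 has the next highest signals, in replicates 2 and 3 only.

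eIF6, which keeps the ribosomal subunits apart and takes part in making the large subunit, had the second-strongest peak of the set. Its thresholded signals were 949, 626 and 658 (744 ± 178, SD, n = 3), with replicate 1 the highest, and its conservative signal of 2214 ranked 20. The summit lay 103 bp upstream of eIF6 (chr2R:23850250-23850550) and in an exon of the antisense transcript asRNA:CR45928, whose start is 74 bp away. ytr starts at 669 bp.

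Of the 8 elongation factor genes, 4 had a conservative summit close to a start, eEFSec had one farther off, and 3 had none in the window. eEF1gamma, a structural subunit of the complex that recharges eEF1alpha with GTP, had thresholded signals of 127, 168 and 179 (158 ± 27.2, SD, n = 3). Its conservative signal was 467 (rank 809), and the summit lay 31 bp upstream of the TSS with no other gene in the window (chr3R:29220025-29220263). eEF1alpha1, the GTPase that carries aminoacyl-tRNA, had 116, 69.9 and 93.6 (93.2 ± 23.1, SD, n = 3) and a conservative signal of 276, with the summit 51 bp upstream of one of its 4 TSSs. As at eIF1A, no replicate peak overlapped it by at least 50% of both widths. A further pair of conservative peaks stood 259 bp upstream (signal 83.7, found in replicate 2 alone) and 718 bp upstream (signal 107, found in replicate 3 alone), both nearer to ERp60. eEF5, the hypusine-carrying factor that relieves stalled ribosomes, had 64.9, 74.5 and 42.1 (60.5 ± 16.7, SD, n = 3), with replicate 3 the lowest, and a conservative signal of 193 at 3 bp upstream. These peaks were found in each replicate, and their summits lay closer to a start than those of most factor genes with a peak.

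eEF2, the translocase, had a summit 9 bp downstream of the TSS in a non-coding part of an exon (chr2L:21681927-21682286), with a conservative signal of 173. It passed the threshold in replicate 2 with 57.2 and in replicate 3 with 84.4, and replicate 1 had no ranked peak there. eEFSec, which delivers selenocysteine, had a conservative signal of 73.1 at 586 bp upstream, inside the coding sequence of Acox57D-p, whose start was nearer (181 bp). Replicate 2 alone placed it above the threshold, with 37.4, and the ranked signals in replicates 1 and 3 were 21.4 and 38.1. The remaining genes, eEF1alpha2, eEF1beta and eEF1delta, lay 1806, 29644 and 31463 bp from a conservative summit. So the exchange factor complex of eEF1 had a peak at its gamma subunit and none at its beta and delta subunits.

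**Figure D3:**
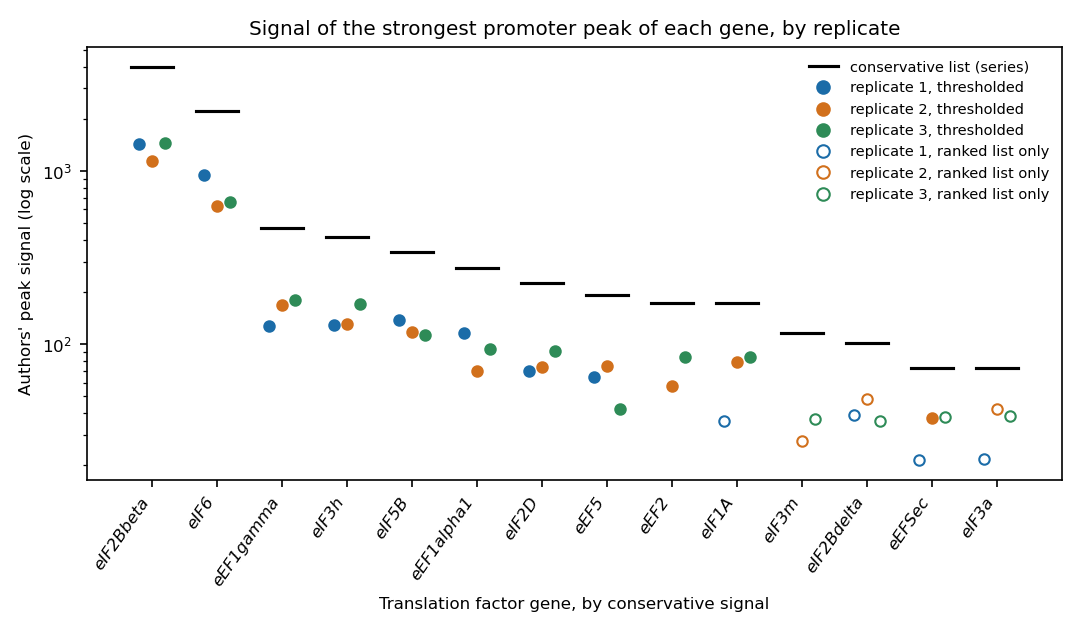
Lines give the authors' signal of the strongest conservative promoter peak of each of the 14 factor genes, and points give the signal in each replicate (log scale, filled where thresholded, open where only ranked). The 8 genes from eIF2Bbeta to eEF5 have a filled point in each replicate, and from eEF2 on at least 1 replicate falls short.

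Across the 14 genes the median conservative signal was 209, with a range from 72.7 to 3996, beside a median of 176 over all 3800 coding genes with a promoter peak. The median distance from summit to TSS was 103 bp, beside 182 bp for all of them. Of the 14 summits, 11 were upstream (78.6%, against 74.5% of all 3800), 9 lay within 200 bp (64.3%, against 53.5%) and 4 beyond 500 bp (28.6%, against 23.1%). Replicate support followed the order of signal, which is partly built in, since both come from the same alignments: the 8 strongest were found in all 3 replicates, the next, eEF2 and eIF1A, in 2, and the last 4 in 1 or 0. Over the 8 genes found in each replicate, the rank correlation of signals was 0.81 between replicates 1 and 2 and 0.905 for either of them with replicate 3. These are descriptions over peaks that share libraries and were chosen for agreement of ranks.

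For 9 of the 14 genes another gene also started within 1000 bp of the summit. For 10 the factor gene was the nearest coding gene, counting eIF3m, which ties with CG8323. The other 4, eIF2Bbeta, eIF2Bdelta, eEFSec and eIF3a, had a neighbour closer to the summit. ChIP-seq alone does not tell which of the neighbouring genes a peak belongs to.

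**Figure D4:**
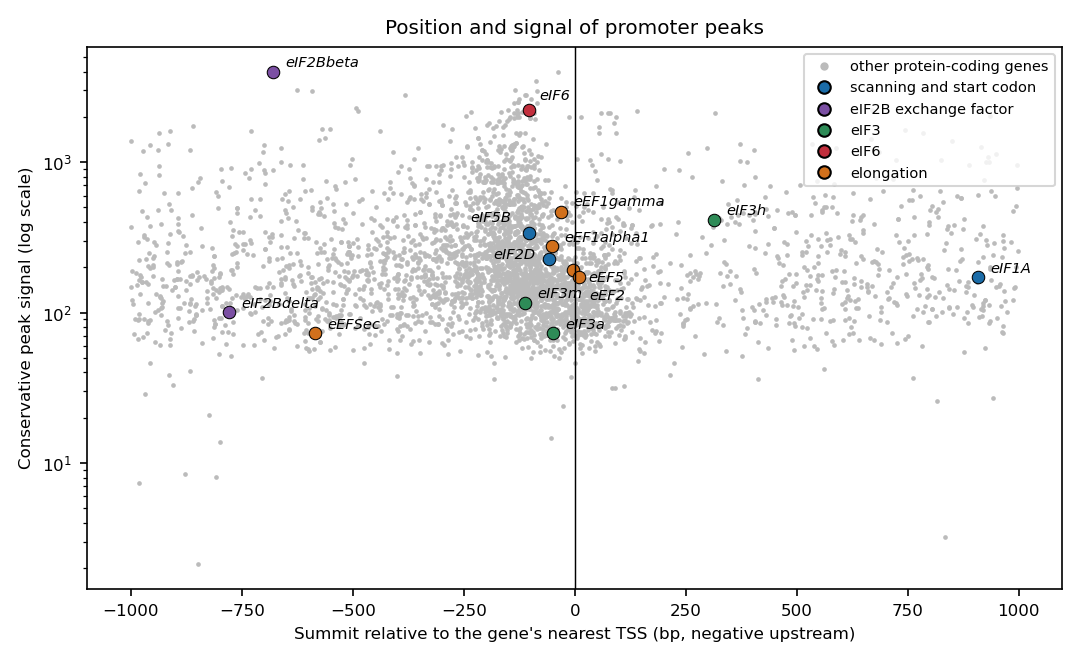
Each point is the strongest conservative promoter peak of a coding gene, with the summit's position relative to the nearest TSS of that gene (bp, negative upstream) against the authors' signal (log scale); the 14 factor genes are coloured by role. Most factor genes fall within 200 bp of a start, while eIF2Bbeta at 681 bp upstream carries the highest signal and eIF1A at 908 bp downstream is the farthest.

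A conservative summit lay inside 8 of the 52 factor genes (15.4%), against 17.4% of all coding genes. Within the 32320 bp of eIF5B the conservative list held 7 peaks. The strongest was an intronic peak of signal 353, found in all 3 replicates, 27.75 kb downstream of the start (chr3L:3432764-3432948), about as strong as the 341 of the promoter peak. The nearest start to it, and to most of the other intronic peaks, was that of the neighbouring sty, 7918 bp away in the case of the strongest. Others had signals of 156 (found in 3 replicates), 141 and 115 (both in 2) and 83.6 (in none). The last, of signal 6.22, overlaps the strongest one, so its support in 3 replicates is shared with it. eIF4EHP held 2 intronic peaks, one of signal 184 found in 3 replicates at 9.78 kb from its start. Syx1A started nearer to that peak, at 6583 bp. SMC1 started nearer to the other, at 21074 bp against 29.6 kb for eIF4EHP. Of the 38 genes without a promoter peak, 37 are on an arm with conservative peaks, and their median distance to the nearest summit was 9.05 kb, with 13 under 5 kb and 11 over 20 kb. In the replicates' ranked lists 29 of these 38 had a peak within the window in at least 1 replicate (76.3%, against 75.8% of coding genes without a conservative promoter peak), and 6 in all 3 (15.8%, against 28%). The 9 with none were eEF1beta, eEF1delta, eIF2gamma, eIF3e, eIF3j, eIF4E1, eIF4G1, eIF4H2 and eIF5.

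The number of annotated TSSs moved with the calls. Of all coding genes with 1 TSS, 19.9% had a promoter peak, and of those with 2, 41.2%. Among factor genes the counts were 5 of 32 with 1 TSS and 8 of 17 with 2. The part of TSS number in the counts by role was not tested. By arm, peaks were found at 6 of 13 factor genes on 2R (27.1% of its coding genes), 4 of 15 on 3R (26.2%), 2 of 5 on 2L (25.1%), 1 of 11 on 3L (28.5%), 1 of 7 on X (31%) and 0 of 1 on chromosome 4 (0%).

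Short motifs were counted on both strands in the 300 bases from 250 before to 50 after the main TSS of each gene. TATCGATA, the DNA replication-related element known from housekeeping promoters, was in 14 of 52 factor promoters (26.9%), in 9.23% of all coding promoters and in 30.1% of those of cytoplasmic ribosomal proteins. It was in 5 of the 14 promoters with a peak and in 9 of the 38 without. GTCACAC, from a core promoter motif of housekeeping genes, was in 9 (17.3%) against 9.6% of all promoters. TATTTAT was in 15 (28.8%) against 26%, CACGTG (the E-box) in 4 (7.69%) against 4.2%, and GAGAGAG (the GAGA element) in 1 (1.92%) against 6.16%. The nuclear receptor half-site AGGTCA was in 3 (5.77%) against 5.82%, and the knirps family half-site TAGAGCA in 1 (1.92%) against 2.32%. TCTTT, the TCT initiator known from ribosomal protein genes, was searched only on the coding strand, starting within 5 bp of the TSS. It stood at eEF2, eIF3i and eIF4A (5.77%), against 1.63% of all promoters and 40.9% of ribosomal protein promoters. A match is a description of the letters and not a binding site.

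In the window from 50 bases before to 50 after the summit, TATCGATA was found at eEF1gamma and eIF3a, 2 of the 14 genes (14.3%), against 1.79% of the windows of all 3800 genes. GTCACAC was found at eEF1alpha1 and eIF2Bdelta (1.66% of all windows), and TATTTAT at eIF3m and eIF6 (11.7% of all windows). Neither half-site was present in the 14 windows, and over all genes AGGTCA was in 1.68% and TAGAGCA in 0.842% of them. The median GC content of the windows was 38.6% for the factor genes and 35.6% for all genes.

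Of the other families of the translation machinery counted, the ribosomal proteins of the cytoplasm stood farthest above the background. Cytoplasmic ribosomal protein genes had a conservative promoter peak at 67 of 93 (72%), against 27.2% of all coding genes. In the replicates' own thresholded lists 61.3% ± 6.45 of ribosomal protein genes had one (SD, n = 3). The same lists gave 22.4% ± 6.75 of factor genes and 22.1% ± 1.91 of all coding genes, so the factor genes lay near the background. The ribosomal protein genes lay above both in each replicate. They numbered 51, 57 and 63 of 93 in replicates 1, 2 and 3, against 8, 12 and 15 of 52 factor genes. Mitochondrial ribosomal protein genes had 25 of 73 (34.2%, replicates 26.0% ± 1.37) and cytoplasmic aminoacyl-tRNA synthetases 7 of 17 (41.2%, replicates 31.4% ± 12.2), which overlap the factor genes across replicates. The synthetases were picked by a rule on the gene symbol. GluProRS, which has a promoter peak of signal 723, fell outside that rule and is not counted. The median conservative signal of ribosomal protein genes with a peak was 188, beside 209 for the factor genes, both taken only over genes with a called peak.

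Of a list of 25 regulators and partners of the factors, 13 (52%) had a conservative promoter peak, against 27.2% of all coding genes. Of the 25, 9 had one found in all 3 replicates, against 14.8% of all coding genes. The list was chosen with earlier results known, and the differences were not tested. Other genes that start near these summits were not looked up, so a peak may lie nearer to a neighbour. At the cap, pAbp, the poly(A)-binding protein that contacts eIF4G, had a signal of 445 at 533 bp downstream, and Thor, the inhibitor of eIF4E, had 181 at 6 bp downstream and was found in 2 replicates. The repressors Paip2 (226 at 872 bp downstream) and Pdcd4 (236 at 608 bp downstream), which act on pAbp and eIF4A, also had peaks. In the TOR pathway, mTor (317 at 226 bp upstream) and raptor (236 at 814 bp upstream) had peaks found in each replicate. The same held for larp (483 at 652 bp upstream) and RpS6 (107 at 51 bp downstream), a ribosomal protein gene already counted above. S6k, the kinase of RpS6, had 57.6 at 545 bp downstream with no replicate support. The release factor eRF3 (172) and the ribosomal scaffold Rack1 (228) were found in each replicate. The reinitiation factor MCTS1 (133) and Dhps (184), the enzyme that makes hypusine on eEF5, were found in 2 and complete the 13. The 12 without a peak were NAT1, eRF1, the eIF2 kinases Gcn2 and PEK, the stress factor crc, PPP1R15, mxt, Lk6, DENR, cup, pix and nero, the hydroxylase that follows Dhps.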

How the data were processed

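The authors deposited peak lists on dm6 for 3 replicates and for the series, per the file headers and labels. The peak signal is the authors' own value, and the deposited score reflects the IDR, with 830 as the lowest score kept, at an IDR of 0.01. The sources used here do not name an aligner or peak caller. The labels point to a control experiment, not analysed here. In the ranked lists, 56 columns of values for unnamed members were not used.

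Genes came from Ensembl release 115 (BDGP6 version 6.54), and 99.5% of annotated coding sequences began with ATG in the RefSeq genome. Genes off the 6 arms (41) were left out. Replicate support meant an overlap of at least 1 bp. Counts are descriptions with no test, and the joins were tested on simulated data. Replicates are 3 biological replicates per the labels, so SDs of counts and shares measure the spread between them. SDs of signals also include any difference in scale. All factor genes are named, and factor genes with a peak are given by their strongest one. The members, roles, lists and motifs were chosen with earlier results of these data known. In the list of regulators 2 symbols (mTor, PPP1R15) were updated by hand. The software was SciPy 1.17.1, NumPy 2.4.6, matplotlib 3.10.9 and pandas 2.3.3 under Python 3.11.15.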

Additional observations from a re-analysis of the deposited data

How the results depend on the processing

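The count of 14 factor genes with a promoter peak was within 1.5 times its value under the other settings tried, with few exceptions. In a 200 bp window it was 9 (17.3%, coding genes 17.6%). For these counts and for the median signal and distance, the settings without a replicate still used the conservative list. That list draws on the alignments of all 3 replicates, and only its peaks found in every remaining replicate were counted. Without replicate 2 the count of factor genes was 8 (15.4%, coding genes 16.2%), and without replicate 3 also 8 (15.4%, coding genes 16.1%). Without replicate 1 it was 10 (19.2%, coding genes 17.5%), which is within 1.5 times. It was 20 (38.5%, coding genes 33.3%) within 2000 bp. The number of coding genes called was 2448 within 200 bp, 2452 with signal at or above the list's median and 2239 to 2437 without single replicates. The median signal of 209 was 251 both within 500 bp and with each peak given to its nearest coding gene, 276 in a series list of 8252 peaks, 308 with signal at or above the median and 308 to 378 without single replicates. The median distance of 103 bp was 54.0 bp within 500 bp, 51.0 bp within 200 bp, 450 bp within 2000 bp and 80.0 bp with the nearest coding gene only, with signal at or above the median and without single replicates. The mean over replicates of 11.7 factor genes was 10 to 13.5 without single replicates. By construction, the windows bound the distances, and the filter on signal takes out weaker peaks, which lowers counts and raises the median signal. The rule that a peak must be in all remaining replicates also lowers counts. Other causes were not tested. No paired analysis was possible because there was 1 group. Depth is unknown, so a gene without a peak cannot be called unbound.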
